A study of Mus musculus with 22 samples.

Results

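Hyaluronan is a long sugar polymer that synthases in the plasma membrane extrude into the extracellular matrix. The large proteoglycans aggrecan and versican bind it through their amino-terminal domain, link protein locks that bond, and receptors and cross-linking proteins tie the resulting coat to cells. In arteries this hydrated matrix is known to swell after injury and during inflammation. The measurements below follow 8 of its genes: the synthases Has1 and Has2, the hyaluronan-degrading protein gene Cemip, the receptor gene Cd44, the cross-linker gene Tnfaip6, the link protein gene Hapln1 and the proteoglycan genes Acan and Vcan. They were picked by name. Every probe set annotated to exactly 1 of these symbols was collected, 24 in all, and each gene was read from its brightest probe set, by the mean over the 22 arrays. The 8 genes are set against all 18193 genes that the array names by a single symbol, and against 53 further genes of hyaluronan and proteoglycan metabolism, 50 of which are on the array.

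RNA was hybridised to 22 Affymetrix Mouse Genome 430 2.0 arrays of male C57BL/6 mice or their cells. Cultured smooth muscle cells came from the suprarenal aorta of mice lacking tenascin C (TNC), a matrix glycoprotein that arteries make at sites of injury, so that all 14 cell arrays share the Tnc-null background. The cells were grown in medium with serum and received TNC plus TNF (4 arrays), TNC alone (4 arrays), TNF alone (3 arrays) or no factor (3 arrays, called unstimulated). TNC was given at 10 µg/mL, and TNF, the cytokine tumour necrosis factor alpha, at 10 ng/mL. The design text gives 24 h of TNF. It also counts 4 independent cultures with TNC and 3 without it, so the TNC comparisons set different cultures against each other. The 8 tissue arrays carry pooled RNA, with 1 pool each for Tnc knockout (KO) or wild type (WT) mice, for the infrarenal or suprarenal aorta, and for treated or untreated animals. Treated pools, called CaAngII, hold 8 mice given CaCl2 (0.5 M) around the infrarenal aorta and an infusion of angiotensin II (1 µg/min/kg) for 1 week. Untreated pools hold 5 mice. The infrarenal and suprarenal pools of a genotype and treatment come from the same mice.

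Several facts of the whole series bear on these genes. Median signal was 51.0 to 64.6 on the cell arrays and 119 to 134 on the pools, and the number of arrays limits the precision. The probe set for Tnc read 257 to 489 in KO pools, against 1805 to 2699 in WT pools, and its place relative to the deleted part of the gene is not given in the sources used here. The summed signal of 5 smooth muscle markers was 37835 to 39357 in unstimulated cells and 30967 to 34331 under TNC. It was 22804 to 24791.5 under TNF and 23228 to 26401 under TNC plus TNF. Myh11, the contractile myosin, read only 27.9 to 407 over the cell arrays. Fibroblast markers (5 genes) summed to 5016 to 5568 in unstimulated cells and 6561 to 7875 under TNC. Their sum was 8271 to 9648 under TNF and 7128 to 8709 under TNC plus TNF. Endothelial markers (5 genes) summed to 6151 to 6869 in unstimulated cells and 8384 to 9342 under TNC. Their sum was 6984 to 7483 under TNF and 6763 to 7213 under TNC plus TNF. Among them Pecam1 and Cdh5 read 3097 to 5065 and 1629 to 2472 over the cell arrays. The leukocyte marker Ptprc read 5.25 to 24.6, near or below the 30th percentile of the arrays. The summed signal of 5 macrophage markers was 693 to 1325 in the cells, and all 5 reached that percentile on at least 3 cell arrays. By treatment this sum was 693 to 1061 in unstimulated cells, 719 to 798 under TNF, 890 to 1147 under TNC and 1074 to 1325 under TNC plus TNF. The sum of 5 other leukocyte markers, Ptprc among them, was 40.1 to 75.6 in unstimulated cells and 51.6 to 109 under TNF. It was 165 to 355 under TNC and 233 to 338 under TNC plus TNF. Of these markers, Ptprc, Cd3e and Cd79a lay below the 30th percentile on every array with TNC, TNF or both. The part of these cell types in the cell results was not tested. In the tissue the KO suprarenal CaAngII pool had the highest summed signal of these 5 other leukocyte markers, 22476.5, most of it from S100a8. The sum was 2448 in the WT suprarenal CaAngII pool, and 15499 (KO) and 13262 (WT) in the infrarenal CaAngII pools. Untreated pools read 2082.5 to 5669. Macrophage markers summed to 24429 in the KO suprarenal CaAngII pool and to 21079 in the WT one. Each result on the KO suprarenal CaAngII pool is given beside the pairs that do not contain it.

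The reference mouse sequence of the 250 bases before the transcription start was available for 7 of the 8 genes (RefSeq, build GRCm38.p6), and not for Has2. Each window was searched on both strands for 5 motifs: AP-1 (TGANTCA), CRE (TGACGTCA), NF-kB (its usual degenerate consensus), C/EBP (TTNNGCAA) and the TATA box (TATAAA). The 4 windows with a match are printed. They belong to Tnfaip6 and Cemip, for which the effect of TNF depended on TNC, to Acan, which fell under each factor, and to Has1, which was high in every CaAngII pool. Capitals mark the matching letters.
Tnfaip6, chr2:52037863-52038112, plus strand: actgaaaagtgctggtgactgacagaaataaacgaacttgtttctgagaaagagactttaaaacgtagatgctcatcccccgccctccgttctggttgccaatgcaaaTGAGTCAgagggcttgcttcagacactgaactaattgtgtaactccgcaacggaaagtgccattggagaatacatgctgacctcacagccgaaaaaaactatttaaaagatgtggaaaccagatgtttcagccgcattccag
Has1, chr17:17855189-17855438, minus strand: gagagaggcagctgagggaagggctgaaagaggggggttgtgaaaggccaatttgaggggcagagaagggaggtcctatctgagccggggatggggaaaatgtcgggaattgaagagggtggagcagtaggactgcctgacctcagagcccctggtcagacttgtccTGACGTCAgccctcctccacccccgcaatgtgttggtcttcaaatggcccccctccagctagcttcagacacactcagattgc
Acan, chr7:79052976-79053225, plus strand: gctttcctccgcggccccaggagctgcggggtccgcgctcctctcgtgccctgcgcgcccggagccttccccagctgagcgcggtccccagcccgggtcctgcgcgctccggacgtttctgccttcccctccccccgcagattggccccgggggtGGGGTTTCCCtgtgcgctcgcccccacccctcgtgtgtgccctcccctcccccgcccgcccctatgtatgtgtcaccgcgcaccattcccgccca
Cemip, chr7:84086506-84086755, minus strand: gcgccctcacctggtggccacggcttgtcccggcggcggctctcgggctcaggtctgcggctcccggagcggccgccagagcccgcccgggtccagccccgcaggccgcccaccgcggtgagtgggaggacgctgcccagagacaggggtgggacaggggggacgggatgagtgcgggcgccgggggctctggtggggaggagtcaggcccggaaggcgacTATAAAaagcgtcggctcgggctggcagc
Tnfaip6 held an AP-1 match that begins 142 bases before the start, and 6.75% of all 32851 windows of that length hold one. Has1 held a CRE match 83 bases before the start, a motif found in 1.55% of windows. Cemip held a TATA match 29 bases before the start, found in 12.4% of windows, and Acan an NF-kB match 95 bases before the start, found in 7.25%. The C/EBP letters occur in 9.56% of windows and in none of the 7 here. The windows of Vcan, Hapln1 and Cd44 held none of the 5 motifs, which says only that these letters are not in these windows. Vcan also had a TNF effect that depended on TNC, and Hapln1 was also lower under each factor. The windows with a match are therefore not set apart by these responses. A match is a description of the sequence and shows no binding.

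In the cells, TNF and TNC each lowered the aggrecan gene Acan and raised the receptor gene Cd44 and the cross-linker gene Tnfaip6. The breakdown gene Cemip fell in cells that received both factors, and its interaction of TNC and TNF was called. All 8 genes passed the filter on low signal, at or above the 30th percentile of the array on at least 3 arrays. The link protein gene Hapln1 reached it on the unstimulated arrays alone and lay below it under each factor, so its calls in the counts below are a description. It is among the lower genes counted for TNF without TNC, for TNC without TNF and for both factors. All 8 genes were tested with limma among 15534 genes, with p-values adjusted over all of them (Benjamini-Hochberg) and a call at an adjusted p under 0.05. TNF without TNC called 5 of the 8 genes, where 34.6% of all tested genes were called. Of these, 2 were higher, against 14.3% of all genes, and 3 lower, against 20.3%. TNF with TNC called 2 of 8, against 22.1%, with 1 higher (9.6% of all genes) and 1 lower (12.5%). TNC without TNF called 4 of 8, against 31.8%, with 2 higher (16.1%) and 2 lower (15.7%). TNC with TNF called 2 of 8, against 28.2%, with 1 higher (16.3%) and 1 lower (11.9%). Cells with both factors differed from unstimulated cells in 5 of 8 genes, against 43.3%, with 2 higher (20.7%) and 3 lower (22.5%). In the comparisons with 2 calls the share of these genes was near that of all genes. The median change of the 8 genes lay between -0.32 and -0.06 on the log2 scale in these comparisons, against -0.06 to 0.00 for all tested genes. The comparisons share arrays, so their counts are not independent of each other.

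**Figure D1:**
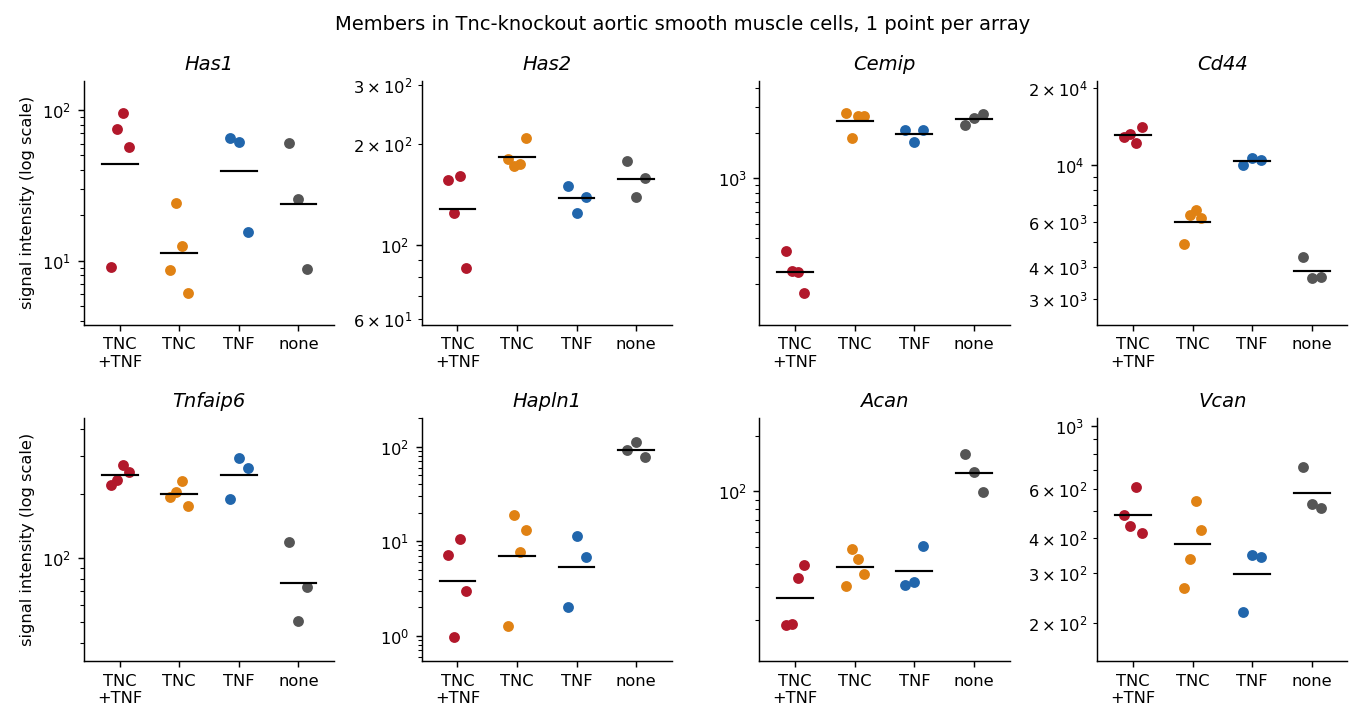
Signal intensity of the 8 genes on each of the 14 cell arrays (log axis), by treatment, with 1 point per array and a line at the geometric mean of the group. Cemip is low on the 4 arrays of cells given TNC plus TNF, and Hapln1 and Acan are high on the 3 arrays of unstimulated cells.

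Cemip encodes a secreted hyaluronan-binding protein needed for the breakdown of hyaluronan in fibroblasts. Its signal was 328, 241, 240.2 and 173 in cells given TNC plus TNF, against 2732, 1844, 2587 and 2583 in cells given TNC alone. It was 2107, 1753 and 2088 under TNF alone, against 2263, 2518 and 2666 in unstimulated cells. The 4 arrays with both factors all lay below every other array, and the groups with 1 factor or none lay close together. In the presence of TNC, TNF lowered Cemip 10.1-fold (log2 change -3.33, SE 0.18, limma adjusted p = 3.68e-07). Without TNC the change by TNF was -0.33 (SE 0.21, adjusted p = 0.266), although the 3 TNF arrays did not overlap the unstimulated ones. TNC lowered Cemip 8.25-fold in cells that also had TNF (log2 change -3.04, SE 0.19, adjusted p = 1.12e-06), and without TNF its change was -0.04 with a 95% interval of -0.47 to 0.39.

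The difference between the TNF effects with and without TNC, the interaction term of the fit, was -3.00 for Cemip (95% interval -3.61 to -2.40, adjusted p = 2.25e-05), an 8.02-fold difference. The interaction was called for 3 of the 8 genes, where 18.8% of all genes were called, with 1 positive (9.81%) and 2 negative (9.01%). The other probe sets of Cemip are far dimmer, with a mean signal of at most 57.4 over all arrays, against 1157 for the one used. Both also fell under TNF in the presence of TNC, by 1.72 (1421645_at, adjusted p = 0.0270) and by 2.35 (1441478_at, adjusted p = 0.0440) on the log2 scale. Their interaction terms were -1.57 and -0.23, and neither was called (adjusted p = 0.199 and 0.929). The effect of TNC in cells with TNF was not called with them either (-1.20 and -0.99).

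Cd44, the main cell surface receptor for hyaluronan, was called higher in each of the 5 comparisons of treatments. Its signal was 12862, 13207, 12187 and 14025 under both factors, 4929.9, 6368, 6681 and 6192 under TNC, 9991, 10628 and 10439.8 under TNF, and 4386, 3614 and 3676 in unstimulated cells. No group overlapped another, and the order from high to low was both factors, TNF, TNC and none. On the log2 scale, TNF raised Cd44 by 1.42 without TNC (SE 0.11, adjusted p = 1.80e-06) and by 1.12 with TNC (SE 0.10, adjusted p = 1.04e-05). TNC raised it by 0.63 without TNF (SE 0.10, adjusted p = 0.000794) and by 0.33 with TNF (SE 0.10, adjusted p = 0.0329). The interaction was -0.30 with an interval of -0.62 to 0.03 and was not called. The call for TNC in cells that also had TNF was lost when any of the 3 TNF arrays or array 1, 2 or 4 with both factors was left out (change 0.30 to 0.35, adjusted p = 0.0553 to 0.101). It was also lost with the dimmer probe set 1452483_a_at (mean signal 648, change 0.06, adjusted p = 0.809). The second brightest probe set, 1423760_at (mean signal 5178), kept it (0.41, adjusted p = 0.00741).

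Tnfaip6 encodes TSG-6, which transfers heavy chains of inter-alpha-trypsin inhibitor to hyaluronan and was named for its induction by TNF. Its signal was 221, 230.4, 271 and 254 under both factors, 192, 204, 230.0 and 175 under TNC, 189.7, 293 and 262 under TNF, and 118, 50.7 and 73.2 in unstimulated cells. Every array with a factor lay above the unstimulated arrays, and the 3 groups with a factor overlapped each other. TNF alone raised it 3.22-fold (log2 change 1.68, SE 0.26, adjusted p = 0.000351), and TNC alone raised it 2.62-fold (1.39, SE 0.24, adjusted p = 0.00114). Added to TNC, TNF gave a change of 0.29 with a 95% interval of -0.20 to 0.78. The TNF effect was smaller with TNC than without it (95% interval of the interaction -2.15 to -0.64, adjusted p = 0.0150).

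Hapln1 encodes link protein, which stabilises the bond between a proteoglycan and hyaluronan. It read 7.21, 0.96, 10.4 and 2.95 under both factors, 1.26, 19.1, 7.62 and 13.0 under TNC, and 2.03, 11.2 and 6.86 under TNF, against 91.6, 113 and 78.6 in unstimulated cells. All 11 arrays of cells with a factor lay below the 30th percentile of their array, which was 18.1 to 23.1, so these values carry no order among themselves. Measured against that percentile, Hapln1 was at least 4.90-fold lower under both factors, at least 4.78-fold lower under TNC and at least 4.38-fold lower under TNF than in unstimulated cells. limma's adjusted p was 0.00297 for both factors, 0.0149 for TNC alone and 0.0111 for TNF alone. Hapln1 passed the filter through the unstimulated arrays alone, and these p-values use the treated values below that percentile. They are therefore given as a description. The fall by TNF without TNC was not called with the dimmer probe sets 1421633_a_at (log2 change -2.50, adjusted p = 0.181) and 1426294_at (-3.10, adjusted p = 0.0777).

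Acan encodes aggrecan, the large proteoglycan of cartilage, which binds hyaluronan and carries many chondroitin sulfate chains. Its signal was 18.7, 19.0, 33.6 and 39.8 under both factors, 30.5, 48.8, 43.1 and 35.5 under TNC, and 30.8, 31.9 and 50.4 under TNF, against 159.9, 128 and 99.2 in unstimulated cells. The unstimulated arrays lay above all 11 others, and the 3 groups with a factor overlapped. Acan was 3.45-fold lower under TNF alone (log2 change -1.79, SE 0.33, adjusted p = 0.00118), 3.26-fold lower under TNC alone (-1.70, SE 0.30, adjusted p = 0.00135) and 4.82-fold lower under both (-2.27, SE 0.30, adjusted p = 9.44e-05). The summed signal of 5 cartilage markers (Sox9, Col2a1, Col10a1, Comp, Matn3) ran the same way, at 411 to 497 under both factors, 785 to 881 under TNC and 810 to 898 under TNF, against 2054 to 2537 in unstimulated cells. Matn3 lay below the 30th percentile on every array with TNF. Their part in the results for Acan and Hapln1 was not tested. Neither factor gave a call in the presence of the other (TNF with TNC -0.57, TNC with TNF -0.48). The interaction was 1.22 (95% interval 0.27 to 2.16, adjusted p = 0.0738) and was not called, but it was called when 32 was added to the signal (0.93, adjusted p = 0.0121), with the filter at the 50th percentile (adjusted p = 0.0474) and without array 1 of the group with both factors (1.38, adjusted p = 0.0478).

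Vcan encodes versican, the main large hyaluronan-binding proteoglycan of the arterial wall. It read 483, 441, 608 and 418 under both factors, 266, 337, 545 and 429.5 under TNC, 219, 349 and 344 under TNF, and 715, 528 and 513 in unstimulated cells. The TNF arrays lay below the arrays with both factors and below the unstimulated ones, while the arrays with both factors overlapped the unstimulated ones. TNF lowered Vcan 1.95-fold without TNC (log2 change -0.96, SE 0.27, adjusted p = 0.0161), and with TNC its change was 0.34 (95% interval -0.17 to 0.85). The interaction was 1.30 (SE 0.36, adjusted p = 0.0260), opposite in sign to that of Cemip and Tnfaip6. TNC gave -0.60 without TNF (adjusted p = 0.0923) and 0.70 with TNF (adjusted p = 0.0605). The last was called after median centring (0.79, adjusted p = 0.0238), in 4 other settings, and without array 1 or array 3 of the TNC group. The 2 calls of Vcan rest on single arrays. Without array 1 of the TNF group they became -0.74 (adjusted p = 0.0683) and 1.08 (adjusted p = 0.0630), and without array 1 of the unstimulated group -0.81 (adjusted p = 0.0652) and 1.15 (adjusted p = 0.0672). Both were also lost with the dimmer probe set 1427257_at (-0.81 and 1.09, adjusted p = 0.0520 and 0.0787). Both were kept with 1421694_a_at (-1.06 and 1.43, adjusted p = 0.00632 and 0.0125).

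The synthases gave no call in any of these comparisons. Has2, the synthase that vascular cells are best known to use, read 156, 124, 160.0 and 85.1 under both factors, 181, 172, 174 and 209 under TNC, 150.1, 125 and 139 under TNF, and 178, 139 and 159 in unstimulated cells. The arrays with both factors lay below those with TNC alone. That comparison gave -0.53 (95% interval -0.92 to -0.14, adjusted p = 0.0556), and it was called when array 1 or array 3 of the group with both factors was left out (-0.62 and -0.64, adjusted p = 0.0365 and 0.0297), with the filter at the 50th percentile, with 32 added and with trended variances. Has1 read 9.07, 74.7, 96.2 and 56.6 under both factors, 8.67, 24.0, 12.6 and 6.10 under TNC, 65.3, 61.9 and 15.4 under TNF, and 60.7, 25.7 and 8.79 in unstimulated cells. Each group held at least 1 array below the 30th percentile and the groups overlapped. The TNF change with TNC was 1.96 (95% interval 0.10 to 3.82, adjusted p = 0.128), and without array 1 of the group with both factors it was 2.72 (adjusted p = 0.0232).

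**Figure D2:**
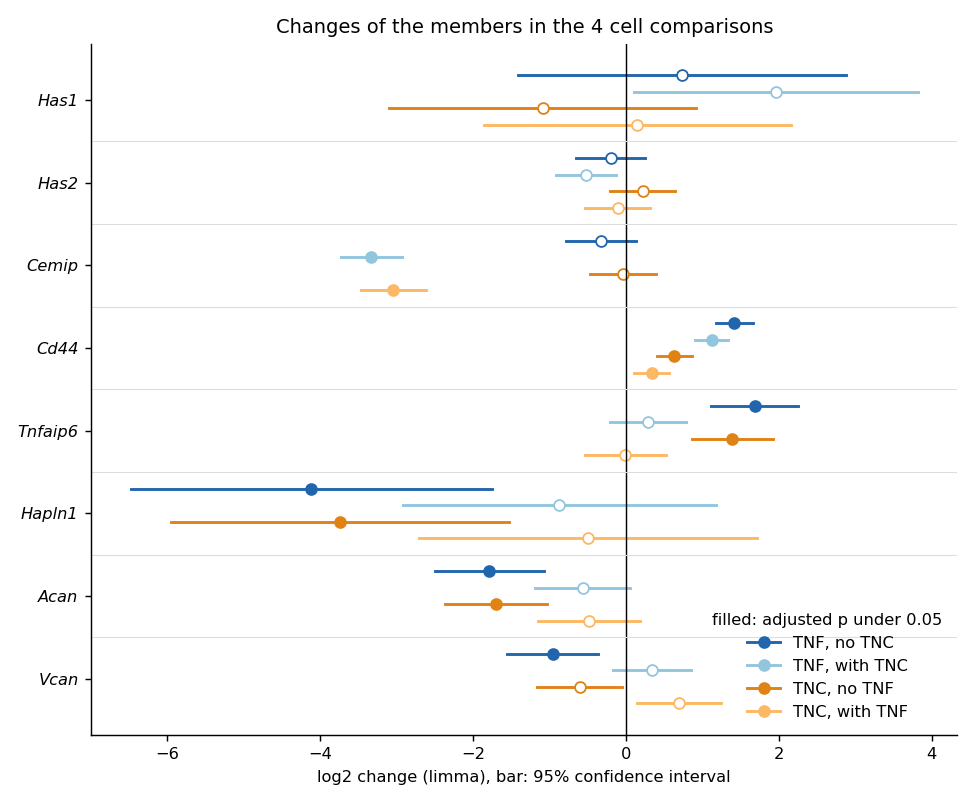
Log2 change of each gene in 4 cell comparisons with its 95% confidence interval (limma). Filled points were called at an adjusted p under 0.05. The points of Cemip with and without the other factor lie about 3 log2 units apart, and the widest intervals are those of Hapln1 and Has1.

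The wider list of hyaluronan and proteoglycan genes had calls in both directions in each comparison of a single factor. Of 47 tested genes, TNF without TNC called 24, where 34.6% of all genes were called, with 9 higher (14.3% of all genes) and 15 lower (20.3%). TNF with TNC called 14, against 22.1%, with 7 higher (9.6%) and 7 lower (12.5%). TNC without TNF called 18, against 31.8%, with 11 higher (16.1%) and 7 lower (15.7%). TNC with TNF called 22, against 28.2%, with 15 higher (16.3%) and 7 lower (11.9%). The counts for TNF with TNC and for TNC without TNF were near those shares. The medians of these genes were -0.11, 0.02, -0.02 and 0.06 on the log2 scale. Among the proteins that bind the hyaluronan coat, the pentraxin gene Ptx3, whose product joins TSG-6 and heavy chains in that coat, rose by 2.81 on the log2 scale under TNF alone (SE 0.12) and by 2.36 under TNC alone (SE 0.12). With TNC present the TNF effect on Ptx3 was smaller, with an interaction of -2.33 (SE 0.16), the same direction as for Tnfaip6. The heavy chain gene Itih4 rose by 3.29 under TNC alone (SE 0.31), fell by 1.53 when TNF was added to TNC (SE 0.29), and had an interaction of -1.93 (SE 0.44). Its relative Itih5 rose by 1.35 under TNF with TNC (SE 0.11). The link protein gene Hapln4, best known from brain, rose by 1.39 under TNC with TNF (SE 0.18), while the brain proteoglycan gene Bcan fell 2.83-fold (SE 0.099 on the log2 scale). All these changes were called (limma, adjusted p under the threshold).

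Among proteases that cut aggrecan and versican, TNF raised Adamts4 by 2.37 on the log2 scale without TNC (SE 0.25) and by 1.79 with TNC (SE 0.22). It lowered Adamts15 by 1.57 (SE 0.38) and Adamts1 by 1.16 (SE 0.16) in cells without TNC, and the interaction of Adamts1 was 1.09 (SE 0.21). TNC without TNF lowered Adamts15 by 1.70 (SE 0.36). Of 6 tested proteases, TNF without TNC called 3 higher, against 14.3% of all genes, and 2 lower, against 20.3%. TNC with TNF called 0 of 6 (limma, adjusted p), where 28.2% of all genes were called. Among enzymes that build chondroitin sulfate chains, Chsy3 fell by 1.56 under TNF alone (SE 0.20) and by 1.38 under TNC alone (SE 0.18), with an interaction of 1.99 (SE 0.26), the same direction as for Vcan. Csgalnact1, which starts the chains, rose by 1.26 under TNC with TNF (SE 0.17), as did Chst11, which sulfates them, by 0.88 (SE 0.11). Among receptors, Lyve1, best known from lymphatic endothelium, fell by 1.11 under TNF alone (SE 0.23) and rose by 1.23 under TNC with TNF (SE 0.22). Hmmr, a hyaluronan receptor that also sits on the mitotic spindle, fell by 1.56 under TNC alone (SE 0.23).

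**Figure D3:**
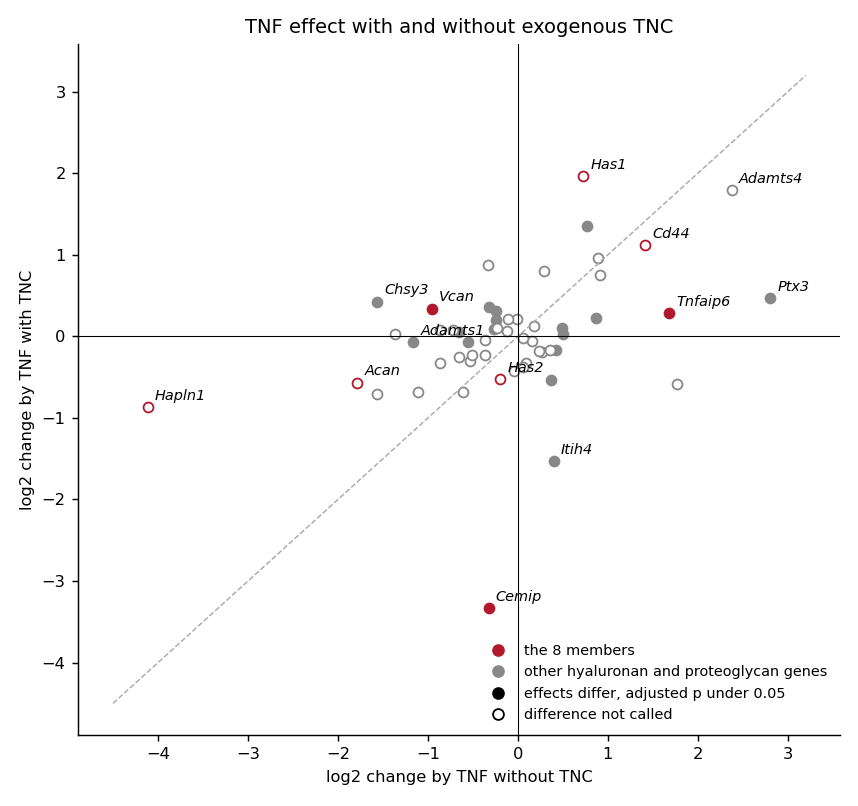
Log2 change by TNF without TNC (x axis) against log2 change by TNF with TNC (y axis) for the 8 genes (red) and the other tested hyaluronan and proteoglycan genes (grey), with a dashed line of equal change. Filled points have a called interaction, among them Cemip far below the line, Tnfaip6 and Ptx3 below it, and Vcan and Chsy3 above it. Both axes come from the same fit, and the text names the genes with called changes.

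The genes whose signal ran most like each member over the 14 cell arrays were ranked among 15534 genes by Pearson's r of log2 signal, as a description. The arrays of a treatment move together in these values, so r mostly follows the group means. Cemip ran most like Ccn5 (r = 0.974), Col8a1 (0.966) and Cbfa2t3 (0.966), and Cd44 most like Slc39a11 (0.986), Uggt1 (0.986) and Csf1 (0.983). Tnfaip6 was nearest to the chemokine gene Ccl5 (0.958), then Nsd3 (0.946) and Wdr55 (0.944). Acan was nearest to Zfp955b (0.962), Slc24a3 (0.948) and Lgr6 (0.942), and Vcan to Chst1 (0.920), Gpam (0.900) and Smap1 (0.900). Hapln1 was nearest to Slc26a7 (0.917), 9130024F11Rik (0.916) and Lrrtm1 (0.903). The lowest leading values were those of the synthases, with Tmem102 for Has1 (0.842) and Aar2 for Has2 (0.867).

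In the aorta each condition is 1 array, so the comparisons carry no test and no error, and fewer cells of a type and less RNA per cell cannot be told apart in pooled tissue. A gene was counted when 1 pool read 2-fold or more above the other, provided that it reached the median of its array in 1 of them. With CaAngII the infrarenal aorta, where CaCl2 was applied, had higher Cemip, Acan, Cd44 and Has1 and lower Hapln1 in both genotypes. In the KO infrarenal pair 5 of the 8 members that passed differed 2-fold, where 17.4% of all genes did, with 4 higher (11.1% of all genes) and 1 lower (6.34%). In the WT infrarenal pair 6 of 7 differed, against 17.7%, with 5 higher (10.6%) and 1 lower (7.05%). The suprarenal pairs gave 3 of 5 in KO, against 5.13%, all higher (3.59%), and 1 of 5 in WT, against 3.61%, also higher (1.22%). Over the 4 pairs 15 of 25 member ratios passed 2-fold, against 10.9% of all such ratios. A member dim in 1 pool of a pair passed through the other pool alone, so these counts are a description.

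**Figure D4:**
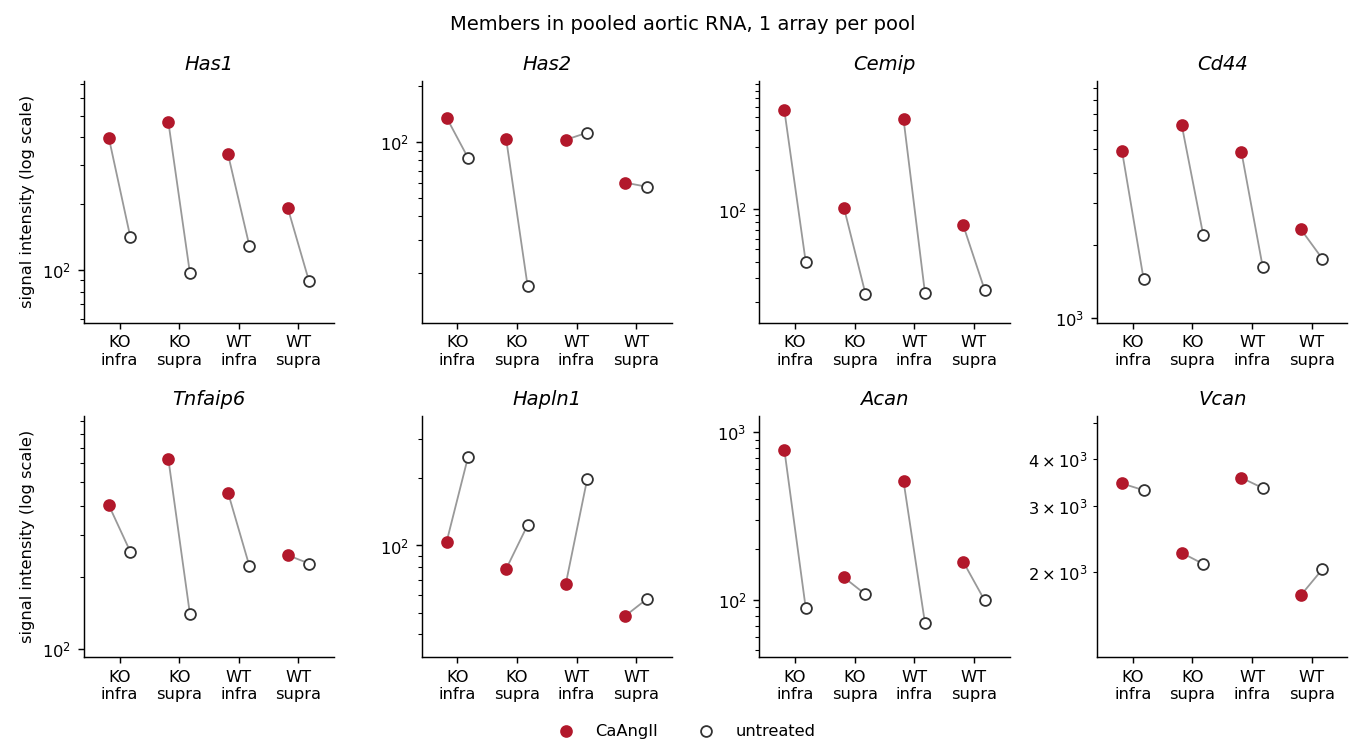
Signal intensity of the 8 genes in the 8 aortic pools (log axis), with the CaAngII pool (filled) joined to the untreated pool (open) of the same genotype and segment. Has1 is higher in the CaAngII pool of all 4 pairs, Hapln1 is lower in all 4, and Vcan differs more between infrarenal and suprarenal pools than between treatments.

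Has1 was the only member at least 2-fold higher with CaAngII in all 4 pairs, which 0.385% of 11158 genes that passed in all pairs were. It read 399 in the KO infrarenal CaAngII pool and 142 untreated, 468 and 97.5 in KO suprarenal, 335 and 128 in WT infrarenal, and 192 and 89.0 in WT suprarenal. All 4 CaAngII pools lay above all 4 untreated pools. Has2 was dim, from 16.9 to 135 over the pools. Its highest ratio, 2.61 on the log2 scale in KO suprarenal, sets 104 in the CaAngII pool against 16.9 in an untreated pool below the 30th percentile of that array. The second Has2 probe set, 1418678_at, gave 1.03 for the same pair, 0.94 and 0.93 for the KO and WT infrarenal pairs, and 0.35 for WT suprarenal. The probe set used gave 0.72, -0.13 and 0.07 for those 3 pairs, so the probe sets differ in sign for WT infrarenal.

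Cemip read 569 in the KO infrarenal CaAngII pool and 39.7 untreated, and 483 and 23.1 in the WT infrarenal pair, log2 ratios of 3.84 and 4.39. In the suprarenal pairs it read 103 and 23.0 in KO and 76.1 and 24.5 in WT, below the filter. Every untreated pool was below the 30th percentile of its array, so the ratios are uncertain in size. The dimmer probe set 1421645_at did not pass the filter and gave -0.45 and -0.51 in the infrarenal pairs. Cd44 read 4907 and 1453 in KO infrarenal (CaAngII first), 6319.9 and 2215 in KO suprarenal, 4899 and 1619.9 in WT infrarenal, and 2328 and 1757 in WT suprarenal. The last pair, at 0.41 on the log2 scale, was the only one under 2-fold. Tnfaip6 read 402 and 257 in KO infrarenal, 625 and 141 in KO suprarenal, 453 and 222 in WT infrarenal, and 248 and 229 in WT suprarenal. Its 4 CaAngII pools spanned 248 to 625 and its untreated pools 141 to 257, so they overlapped.

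Acan read 788 in the KO infrarenal CaAngII pool and 88.5 untreated, and 509 and 72.1 in the WT infrarenal pair, log2 ratios of 3.15 and 2.82. The suprarenal pairs read 136 and 108 in KO and 169 and 98.8 in WT, both under 2-fold. Cartilage markers moved with Acan. The summed signal of 5 such markers was 8485 with CaAngII and 795 untreated in KO infrarenal pools, and 8344 and 1113 in WT infrarenal pools. Their largest part was Comp, and the cartilage collagen gene Col2a1 read 741 and 43.2 in KO and 418 and 31.0 in WT. The part of such tissue in the Acan result was not tested. Macrophage markers also moved with the infrarenal results: the summed signal of 5 markers was 47691 with CaAngII and 14783 untreated in KO, and 45194 and 17369 in WT. Other leukocyte markers (5 genes) summed to 15499 with CaAngII and 2082.5 untreated in KO infrarenal pools, and to 13262 and 3243 in WT. Fibroblast markers (5 genes) summed to 58619 and 36838 in KO, and to 52361 and 38377 in WT. The part of these cell types in the results for Cd44, Cemip, Has1 and Tnfaip6 was not tested.

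Hapln1 went the other way. It read 104 and 249 in KO infrarenal (CaAngII first), 78.4 and 124 in KO suprarenal, 67.3 and 199 in WT infrarenal, and 48.3 and 57.5 in WT suprarenal. The CaAngII pool was lower in all 4 pairs, by at least 2-fold in the infrarenal pairs (log2 ratios -1.27 and -1.57), and the suprarenal pairs were below the filter. Smooth muscle markers moved with it, with a summed signal of 56459.5 with CaAngII and 87559.6 untreated in KO infrarenal pools and 48859 and 84536 in WT infrarenal pools. Endothelial markers (5 genes) summed to 7819 with CaAngII and 12516 untreated in KO infrarenal pools, and to 8165 and 14869.8 in WT. Fat markers (4 genes) summed to 20134 and 36825 in KO and to 16310.1 and 36449 in WT. The part of these cell types in the result was not tested. Vcan did not differ 2-fold with CaAngII in any pair. Its ratios were 0.06 in KO infrarenal, 0.10 in KO suprarenal, 0.09 in WT infrarenal and -0.23 in WT suprarenal pools.

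Between segments, Vcan was higher in each infrarenal pool than in the suprarenal pool of the same mice. It read 3449 and 2251 in KO CaAngII, 3309.8 and 2101 in KO untreated, 3572 and 1734 in WT CaAngII, and 3354 and 2034 in WT untreated. The 4 infrarenal pools lay within 3309.8 to 3572 and the 4 suprarenal pools within 1734 to 2251, and the ratio reached 2-fold in the WT CaAngII pair (1.04 on the log2 scale). Fibroblast markers (5 genes) moved with Vcan, with infrarenal and suprarenal sums of 58619 and 31024 in KO CaAngII, 36838 and 21866 in KO untreated, 52361 and 34241 in WT CaAngII, and 38377 and 24899.9 in WT untreated. Endothelial sums were also higher in the infrarenal pools, at 7819 to 14869.8, against 4949.6 to 7254. Adrenal and sympathetic neuron markers (4 genes) were lower there, at 1792 to 4976, against 14100.0 to 18561. In the CaAngII pairs cartilage markers (5 genes) summed to 8485 infrarenal and 1110 suprarenal in KO, and to 8344 and 1720 in WT. Macrophage markers (5 genes) summed there to 47691 and 24429 in KO, and to 45194 and 21079 in WT. In untreated pools the macrophage sums were lower in the infrarenal aorta, at 14783 and 20221 in KO and 17369 and 21964 in WT. The part of these cell types in the segment results was not tested. In the WT CaAngII pair 4 of the 6 members that passed were at least 2-fold higher in the infrarenal pool, where 20.8% of all genes differed and 9.51% were higher. In KO CaAngII 2 of 7 were, where 16.1% differed and 6.79% were higher. Acan and Cemip were the 2 members past 2-fold in both CaAngII pairs, with ratios of 2.54 and 2.46 in KO and of 1.59 and 2.66 in WT. Without treatment 1 of 5 members was 2-fold higher in KO, where 12.9% of genes differed and 3.09% were higher, and 1 of 5 in WT, where 9.54% differed and 1.96% were higher. Over the 4 pairs of segments 8 of 23 member ratios passed 2-fold, against 14.9% of all such ratios. The untreated member was Hapln1 in both genotypes, at 1.01 in KO and 1.79 in WT.

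Among members that passed the filter, 2-fold differences between genotypes appeared in the suprarenal CaAngII pair and in no other pair. There 3 of the 5 members that passed were higher in KO, where 2.86% of all genes differed and 2.52% were higher: Cd44 by 1.44, Tnfaip6 by 1.33 and Has1 by 1.28 on the log2 scale. That pair contains the KO pool with high leukocyte markers, where S100a8 read 17385, against 475 in the WT pool, and the granulocyte receptor gene Csf3r 1889, against 124. Their part in the result was not tested. In the infrarenal CaAngII pair, without that pool, 0 of 7 members differed 2-fold (1.17% of all genes did), and Cd44, Tnfaip6 and Has1 gave 0.00, -0.17 and 0.25. In the untreated pairs 0 of 5 infrarenal members (1.7% of genes) and 0 of 3 suprarenal members (1.86%) differed 2-fold. Below the filter in the untreated suprarenal pair, Hapln1 read 124 in KO and 57.5 in WT, and Has2 16.9 and 57.6. The dimmer Cd44 probe set 1452483_a_at gave 1.38 for KO against WT in untreated infrarenal pools. Over the 4 pairs of genotypes this makes 3 of 20 member ratios, against 1.9% of all such ratios.

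Among the wider list in the pools, Ptx3 and Adamts4 were at least 2-fold higher with CaAngII in all 4 pairs. Ptx3 read 844 and 71.0 in KO infrarenal (CaAngII first), 1955 and 62.6 in KO suprarenal, 805 and 78.2 in WT infrarenal, and 232 and 78.2 in WT suprarenal. Adamts4 read 495 and 61.9, 636 and 27.1, 346 and 67.8, and 129 and 56.7 in the same order of pairs. Chst11 was past 2-fold in 3 pairs, all but WT suprarenal, and Gusb, a lysosomal enzyme that trims hyaluronan fragments, in both infrarenal pairs (1.93 in KO, 1.51 in WT). Gfpt2 was also 2-fold higher in 2 pairs, while Adamts1 was 2-fold lower in 2. In KO infrarenal 8 of the 38 list genes that passed were 2-fold higher (11.1% of all genes) and 3 lower (6.34%). In WT infrarenal 6 of 38 were higher (10.6%) and 2 lower (7.05%). The suprarenal pairs gave 5 of 37 higher and 0 lower in KO, where 5.13% of all genes differed. They gave 2 of 39 higher and 2 lower in WT, where 3.61% differed. Between genotypes Ptx3 differed by 3.07 in the suprarenal CaAngII pair and by 0.07 in the infrarenal one. Between segments Adamts15 was at least 2-fold higher in the infrarenal pool of all 4 pairs (1.25 to 1.41), as 0.334% of all genes were. Bcan was at least 2-fold lower in all 4 (-3.12 to -1.52), as 4.09% of all genes were.

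Over the 8 pools the genes most like each member were ranked among 11938 genes by r, as a description over pools that share mice. Has1 ran most like the metallothionein gene Mt2 (r = 0.994), Thbs1 (0.990) and Mt1 (0.989). Tnfaip6 ran most like the chemokine genes Cxcl2 (0.991) and Ccl4 (0.980), and Cd44 most like the granulocyte receptor gene Csf3r (0.982). Without the KO suprarenal CaAngII pool these values were 0.993, 0.985, 0.986, 0.985, 0.972 and 0.980. Acan ran most like Man1c1, Tbck and the cartilage collagen gene Col11a1 (0.987 for the last), and Vcan most like Lztfl1 (0.998).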

How the data were processed

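The authors deposited 1 linear signal intensity per probe set and array, from Affymetrix Expression Console per the submitters' processing notes (version not given in the sources used here). The deposited intensities are scaled to a common trimmed mean, as their values show. They were taken to log2 with no pseudocount, which spreads low values. Of 45101 probe sets, 34945 carry exactly 1 symbol in GEO's platform annotation, naming 18193 genes, each read from its brightest probe set. For the 8 members these were 1449827_at (Acan), 1427256_at (Vcan), 1420590_at (Has1), 1449169_at (Has2), 1438020_at (Hapln1), 1429987_at (Cemip), 1434376_at (Cd44) and 1418424_at (Tnfaip6). The 2 probe sets of Has2 are about equally bright. Groups follow the treatment labels. Titles of the TNC arrays read "TNC or TNF", and the labels' hours, which count up from array to array, were not used. No 2 arrays hold identical values.

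Cell comparisons were fitted with limma 3.58.1 in R 4.3.3 (lmFit, eBayes) over 14 arrays with 10 residual degrees of freedom, after a test on simulated data. The labels do not say whether TNF-treated and untreated cultures of an arm are the same, so p-values measure the spread between these arrays. Pools have no replicates and no test. Same-numbered arrays did not deviate together (19 pairs, r of -0.016 to 0.057), so the numbers were not taken as pairs. Alternatives covered filters, scaling, a constant of 32, probe sets, variance options, a replicate block and each array left out.

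The members and gene lists were chosen with earlier results of these data known. Beyond the members, the text names the 6 genes of the wider list with the largest called change per comparison. It also names some, not all, of those past 2-fold in the pools, and up to 3 genes most like each member.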

Additional observations from a re-analysis of the deposited data

Results flagged for a closer look

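The effect of TNF differed with and without TNC for 3 of the 8 genes by the interaction term of limma. On the log2 scale it was lower with TNC for Cemip (interaction -3.00, SE 0.28, adjusted p = 2.25e-05) and for Tnfaip6 (interaction -1.40, SE 0.34, adjusted p = 0.0150). It was higher with TNC for Vcan (1.30, SE 0.36, adjusted p = 0.0260). In Cemip the 4 arrays with both factors read 173 to 328, and the 10 others 1753 to 2732. In Tnfaip6 the unstimulated arrays stood apart. In Vcan the TNF arrays lay below the unstimulated arrays and those with both factors, but overlapped the TNC arrays.

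Among cells given TNC alone, 1 array read 1844 for Cemip, against 2583 to 2732 on the other 3. Its gap to the nearest array, as a share of the group's range, passed Dixon's critical value for 4 samples. This was 1 of 16 groups examined, and chance gives about 1 in 20.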

How the results depend on the processing

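Of the changes of the 8 genes in the cells, 1111 values under the alternatives kept their direction and side of the threshold, 26 lost a call, 20 gained one and 23 changed sign. None of the main values that changed sign was called, except the interaction of Vcan, which became -1.20 with the dim probe set 1433043_at. That probe set also gave Vcan -1.66 for TNC with TNF and -1.44 for TNF with TNC. Cemip under TNC without TNF became 0.13 after median centring of the arrays, 0.37 with probe set 1421645_at and 0.021 with a replicate block. Hapln1 under TNF with TNC became 0.82 and 0.61 with probe sets 1421633_a_at and 1426294_at, and Has2 under TNC without TNF became -0.14 with 1418678_at. Tnfaip6 under TNC with TNF became 0.090 with centring and 0.015 with the replicate block. Leaving out 1 array at a time gave -0.11 to 0.088 for Cemip under TNC without TNF. For TNC with TNF it gave -1.20 to 0.17 for Hapln1, -0.54 to 0.90 for Has1, -0.22 to 0.086 for Has2 and -0.19 to 0.12 for Tnfaip6.

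The count of members with a called interaction was 3, and became 5 with 32 added to the signal and 1 with a replicate block within each TNC arm, where Cemip kept its call. With that block the adjusted p was 0.0825 for the Tnfaip6 interaction, 0.0628 for Vcan and 0.0663 for Itih4, and 0.0534 for Hapln1 under TNF without TNC. The replicate numbers did not pair the arrays. TNC with TNF called 2, and 1 with the replicate block. With 1 array left out the counts spanned 4 to 5 for TNF without TNC, 2 to 4 for TNF with TNC, 4 to 5 for TNC without TNF, 1 to 3 for TNC with TNF, 5 for both factors and 2 to 4 for the interaction. In the pools, 15 of 25 ratios for CaAngII passed 2-fold, and 6 did with the filter at the 75th percentile. Between segments 8 passed, 16 at 1.5-fold, 5 with centring and 4 at the 75th percentile. Between genotypes 3 passed, 5 at 1.5-fold and 5 with no filter.

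Centring moved the median of all genes from -0.03 to 0.14 for TNC without TNF and from -0.06 to 0.15 for both factors. The share of calls that were higher became 76.2% with centring and was 50.7% without it for TNC without TNF. It was 57.4% and 41.2% for TNF without TNC, 74.2% and 57.8% for TNC with TNF, 71.4% and 47.9% for both factors, and 39.0% and 52.1% for the interaction. The cause of these shifts was not tested. Signals below the 30th percentile limit Hapln1 under each factor, Has1 in the cells and Cemip in untreated aorta.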

Other observations

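The wider list holds 8 tested genes for hyaluronan's sugar precursors and for the synthase Has3. Among these, TNC with TNF called 4 higher, against 16.3% of all tested genes, and 0 lower, against 11.9%. They were chosen for mention after their values were seen. The 4 belong to the route that makes UDP-N-acetylglucosamine: Gfpt1 and Gfpt2, which carry out its first step, Gnpnat1, and Pgm3. Their log2 changes in the presence of TNF were 0.45, 0.44, 0.86 and 0.49, all called by limma. Uap1, the last enzyme of that route, gave -0.21 (adjusted p = 0.0933) and was not called. The synthases Has1 and Has2, which are members and not among these 8, gave 0.15 and -0.11 in the same comparison and were not called.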
